A study of Mus musculus with 4 samples.

Results

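Ribosome footprints were compared for p53 and 9 of its target genes between osteoclast precursors of Nat10 conditional knockout mice and of wild-type mice. The members are the rows of the deposited count table named Trp53, Cdkn1a, Mdm2, Ccng1, Bax, Phlda3, Trp53inp1, Zmat3, Aen and Btg2, 10 of 22417 listed genes, chosen by gene name and not by their counts. The libraries came from bone-marrow-derived monocytes of mice with a conditional knockout of Nat10 (cKO, 2 libraries) and of wild-type mice (WT, 2 libraries). All cells had been driven towards osteoclasts with RANKL for 3 days. For all 4 libraries, cycloheximide was used at 100 μg/mL in the wash. The sources used here do not give the Cre driver, the deleted exons, the age and sex of the mice or any pooling of animals. Whether the replicates are separate mice or cultures is not stated, so p-values reflect the spread between these 4 libraries, part of which may be technical.

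The protein p53, encoded by Trp53, is a transcription factor that is kept scarce because the ubiquitin ligase Mdm2 marks it for degradation. When DNA is damaged or ribosome assembly in the nucleolus fails, p53 accumulates and switches on genes that stop the cell cycle (Cdkn1a, which encodes p21), promote apoptosis (Bax, Aen) or limit p53 itself (Mdm2). NAT10 is a nucleolar enzyme that acetylates RNA, and in human cells it has been described to acetylate p53 and to promote the degradation of MDM2. A footprint is a stretch of mRNA protected by a ribosome. A gene's footprint count therefore depends on both the amount of its mRNA and how often that mRNA is translated, and these cannot be told apart here. Footprints also do not measure p53 protein, which is controlled largely by degradation.

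Target genes of p53 carry response elements, and RefSeq promoter windows of these members were searched for their consensus. The windows run from 250 bases before to 50 after an annotated start, in the build GRCm38.p6, and 8 of the 10 members matched, with 10 windows. Trp53inp1 and Zmat3 had no entry. Each window was searched on both strands for the 10-base p53 consensus motif, which reads the same on both, and for a pair of such motifs back to back that keep the C and the G of each core, with at most 2 mismatches in all. The motif was found without mismatch in 7 of the 10 windows and in 8.36% of all 32851 windows. The 2 Aen windows overlap and hold the same match, so that 6 genes had one. The back-to-back pair was found in 2 of the 10 windows, those of Ccng1 and of the upstream Cdkn1a start, each with 1 mismatch, and in 0.326% of all windows. A wider form had been searched first, with up to 13 bases between the motifs and at most 3 mismatches. It was found in 6 of the 10 windows, of Aen (both windows), Bax, Ccng1, Cdkn1a and Trp53, and in 15.6% of all windows. The back-to-back form replaced it after these matches had been seen, the members are known p53 targets, and a match is a description and not evidence of binding. Windows are shown for the 2 genes with a pair, whose footprint differences had opposite signs, and for Phlda3 and Mdm2, the other members with an unadjusted p under 0.05, whose windows hold no such pair. Capitals mark the pair.
Ccng1, chr11:40755237-40755536, minus strand: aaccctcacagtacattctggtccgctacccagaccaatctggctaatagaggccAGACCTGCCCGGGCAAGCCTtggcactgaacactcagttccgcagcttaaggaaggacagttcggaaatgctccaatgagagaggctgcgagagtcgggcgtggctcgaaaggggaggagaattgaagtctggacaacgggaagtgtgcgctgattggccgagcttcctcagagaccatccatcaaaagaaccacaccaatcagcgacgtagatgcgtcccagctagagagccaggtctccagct
Cdkn1a, chr17:29090729-29091028, plus strand: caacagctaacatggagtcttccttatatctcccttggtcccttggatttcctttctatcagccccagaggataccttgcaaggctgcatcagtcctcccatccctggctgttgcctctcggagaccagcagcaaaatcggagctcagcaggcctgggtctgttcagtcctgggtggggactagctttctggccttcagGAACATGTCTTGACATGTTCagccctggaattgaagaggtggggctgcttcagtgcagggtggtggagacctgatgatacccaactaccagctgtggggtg
Phlda3, chr1:135765835-135766134, plus strand: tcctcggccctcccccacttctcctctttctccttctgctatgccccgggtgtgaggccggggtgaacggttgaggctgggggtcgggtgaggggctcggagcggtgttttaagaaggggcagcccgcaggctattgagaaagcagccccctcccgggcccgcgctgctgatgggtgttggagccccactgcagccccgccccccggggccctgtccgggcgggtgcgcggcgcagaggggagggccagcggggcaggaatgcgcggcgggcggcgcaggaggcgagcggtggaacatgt
Mdm2, chr10:117710709-117711008, minus strand: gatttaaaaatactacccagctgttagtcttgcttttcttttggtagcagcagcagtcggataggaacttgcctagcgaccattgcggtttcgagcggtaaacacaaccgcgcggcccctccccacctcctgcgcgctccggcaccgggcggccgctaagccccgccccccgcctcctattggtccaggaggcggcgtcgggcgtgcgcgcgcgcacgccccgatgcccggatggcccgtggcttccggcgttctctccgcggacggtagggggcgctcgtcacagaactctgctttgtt
The pair began 195 bases before the start in Ccng1 and 51 bases before the upstream start in Cdkn1a. The window of the other Cdkn1a start (chr17:29093519-29093818) held no pair and 0 exact copies of the motif. The Mdm2 window holds 1 complete exact copy of the 10-base motif and the Phlda3 window holds 0. The Phlda3 window ends in gaacatgt, which fits the start of the motif. A copy cut by the end of a window could not be counted, so the 0 holds only within this window.

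The libraries were unequal in depth and likeness. They held 1467611 and 1481083 counts in cKO, against 906937 and 3014620 in WT, and 7953 genes had enough counts to be tested. WT replicate 2 stood apart. Its log2 CPM (counts per 1000000) correlated at 0.760 and 0.769 with the cKO libraries and at 0.797 with WT replicate 1, while WT replicate 1 correlated at 0.862 and 0.876 with the cKO libraries. In WT replicate 2, 362 of 7794 genes with at least 20 counts expected from the other libraries were at 0, compared with 1 to 45 such genes in each other library. Counts of the targeted gene Nat10 showed no measurable fall (69.3 and 48.5 CPM in cKO, against 84.9 and 50.8 CPM in WT; log2 fold change -0.18, SE 0.41, adjusted p = 0.907 by edgeR), and so do not check the genotype labels. All 16 macrophage and osteoclast markers had counts, with summed levels of 46974 and 41681 CPM in cKO, against 65045 and 81085 CPM in WT. Lyz2 made up 22903 and 19660 CPM of this in cKO, against 33979 and 45731 CPM in WT. Of these 16 markers, 13 had a negative and 3 a positive log2 fold change. By edgeR 3 fell (Csf1r, Lyz2 and Mmp9) and 0 rose, against 0.754% and 0.641% of all genes. Of 16 stromal and osteoblast markers, 13 had counts and Sp7, Bglap and Thy1 had none. Their summed level was 656 and 612 CPM in cKO, against 4717 and 6067 CPM in WT. The collagen genes Col1a1 and Col1a2 made up 62.6% and 56.6% of it in cKO, against 72.7% and 76.0% in WT. Of the 10 markers tested, 8 had a negative and 2 a positive log2 fold change, and 6 fell by edgeR, against 0.754% of all genes. The positive ones were Pdgfrb (23.3 and 12.8 CPM in cKO, against 8.82 and 1.71 CPM in WT) and Runx2 (8.92 and 12.8 CPM in cKO, against 4.41 and 0 CPM in WT), neither of which passed. The part of the macrophage and stromal marker differences in the results below was not tested. In such bulk libraries, fewer cells of a type and fewer footprints per cell cannot be told apart. Neutrophil markers summed to 836 and 785 CPM in cKO, against 1336 and 1523 CPM in WT, with Ly6g at 0. In sum, lymphoid markers reached at most 14.4 CPM and erythroid and endothelial markers at most 25.4 CPM.

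None of the p53 genes passed the test between genotypes. Of the 10 members, 7 had enough counts to be tested, and 0 of these 7 had an adjusted p under 0.05 by edgeR's quasi-likelihood test, against 1.4% of the 7953 genes tested (0.641% higher and 0.754% lower in cKO). At an unadjusted p under 0.05 there were 3, against 12.1% of all genes tested. Mdm2 was the 1 with higher values in cKO (5.63% of all genes), and Ccng1 and Phlda3 were the 2 with lower values (6.5% of all genes). DESeq2 called 0 of the 4 to which it gave an adjusted p, and limma-voom called 1, Ccng1. Of the 7 log2 fold changes, 2 were positive and 5 negative, with a median of -0.23, against -0.01 over all genes tested. Groups did not overlap for 4 of the 7, Mdm2 with higher and Trp53, Ccng1 and Phlda3 with lower values in cKO. Phlda3 was tested only because of its WT counts, so it could enter these tallies only as lower in cKO. Over all genes tested, groups did not overlap for 45.2%, 22.7% with higher and 22.6% with lower values in cKO. The members thus showed no common direction. CPM use totals scaled by TMM factors, log2 fold changes are cKO minus WT, and ± gives the SD of 2 libraries.

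**Figure D1:**
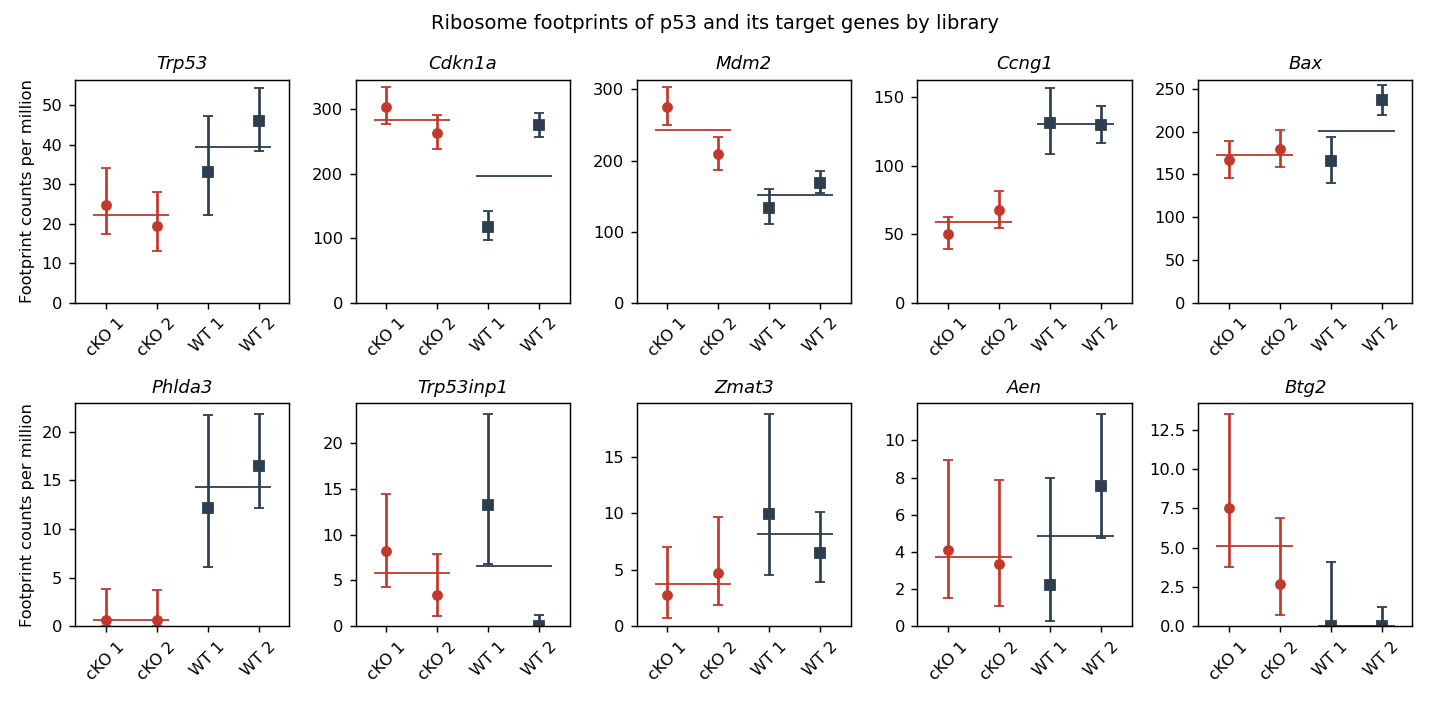
Footprint CPM (y axis, linear, its own scale in each panel) of the 10 genes in cKO replicates 1 and 2 (red circles) and WT replicates 1 and 2 (dark squares). Vertical bars are exact 95% Poisson intervals, which cover counting error only, and horizontal lines are group means. Ccng1 and Phlda3 lie lower and Mdm2 higher in both cKO libraries, while Cdkn1a differs between the 2 WT libraries, at 118 and 275 CPM.

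Trp53 itself (ENSMUSG00000059552, chromosome 11, 69471185 to 69482699, plus strand, GRCm39) was sparsely covered. It had 36 and 29 counts in cKO, against 30 and 134 in WT, which are 24.7 and 19.5 CPM in cKO, against 33.1 and 46.0 CPM in WT. Both cKO libraries lay below both WT libraries, but the Poisson intervals of cKO replicate 1 (17.3 to 34.2 CPM) and WT replicate 1 (22.3 to 47.2 CPM) overlapped. The mean level (SD, n = 2 each) was 22.1 ± 3.64 CPM for cKO and 39.5 ± 9.10 CPM for WT. The log2 fold change was -0.85 (SE 0.52, 95% interval -2.04 to 0.34, adjusted p = 0.567, edgeR). This interval holds 0 and also a fall of more than 2 on the log2 scale, so the counts do not settle whether Trp53 footprints differed.

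Mdm2, whose product binds p53 and marks it for degradation, is itself switched on by p53. Mdm2 (ENSMUSG00000020184, chromosome 10, 117524780 to 117546663, minus strand) had 402 and 310 counts in cKO, against 121 and 493 in WT, or 276 and 209 CPM in cKO, against 133 and 169 CPM in WT. Both cKO libraries were above both WT libraries, and neither cKO Poisson interval (249 to 304 and 186 to 234 CPM) reached a WT one (111 to 159 and 154 to 185 CPM). The means were 242 ± 47.2 CPM in cKO and 151 ± 25.2 CPM in WT, 1.59-fold (log2 fold change 0.67, SE 0.25, 95% interval 0.10 to 1.24). The adjusted p was 0.326 by edgeR, so the difference did not pass over all genes. With either WT library left out the spread comes from the cKO pair alone, and Mdm2 then passed: log2 0.55 with an adjusted p of 0.0458 without WT replicate 1, and 0.87 with an adjusted p of 0.0117 without WT replicate 2 (edgeR). Far more genes passed under those settings too, 27.4% and 5.48% of those tested.

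Cdkn1a, whose product p21 inhibits cyclin-dependent kinases and halts the cell cycle, was the most unequal within WT of the 5 members with at least 20 counts in every library. Cdkn1a (ENSMUSG00000023067, chromosome 17, 29309950 to 29319701, plus strand) had 443 and 391 counts in cKO, against 107 and 801 in WT, or 304 and 264 CPM in cKO, against 118 and 275 CPM in WT. WT replicate 1 alone was low, and WT replicate 2 lay between the cKO libraries. The WT libraries differed by 1.22 on the log2 scale and the cKO libraries by 0.21 in size. The log2 fold change was 0.51 (SE 0.35, 95% interval -0.29 to 1.30, adjusted p = 0.616, edgeR). Its size was set by the choice of WT library: 1.28 without WT replicate 2 and 0.08 without WT replicate 1 (edgeR). Both cKO libraries were thus above WT replicate 1, but not both above WT replicate 2.

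Ccng1 encodes cyclin G1, a p53 target that recruits a phosphatase to Mdm2. Ccng1 (ENSMUSG00000020326, chromosome 11, 40639379 to 40646138, minus strand) had 73 and 100 counts in cKO, against 119 and 378 in WT, or 50.1 and 67.4 CPM in cKO, against 131 and 130 CPM in WT. The WT libraries, which differed for Cdkn1a, were alike for Ccng1, and both cKO libraries were at about the same lower level. The means were 58.7 ± 12.3 CPM in cKO and 130 ± 1.13 CPM in WT, a log2 fold change of -1.15 (SE 0.31, 95% interval -1.85 to -0.45). With an adjusted p of 0.148 by edgeR it did not pass, and it ranked 268 of 7953 by p, the highest rank of the members. It passed with limma-voom (adjusted p = 0.0254), where 7.53% of all genes passed, against 1.4% in the main fit. The log2 fold change was -1.10 without WT replicate 1 and -1.14 without WT replicate 2 (edgeR). Without cKO replicate 1 it was -0.93 and without cKO replicate 2 it was -1.36. The summed level of stromal markers was also lower in cKO, though not that of Pdgfrb and Runx2, and their part in this difference was not tested.

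Phlda3 encodes a small pleckstrin homology domain protein that competes for membrane lipids with the survival kinase Akt. Phlda3 (ENSMUSG00000041801, chromosome 1, 135693857 to 135696874, plus strand) had 1 and 1 counts in cKO, against 11 and 48 in WT, or 0.686 and 0.674 CPM in cKO, against 12.1 and 16.5 CPM in WT. It was nearly absent from both cKO libraries and low in both WT libraries. Summed counts of 2 in cKO and 59 in WT gave a level 22.7 times higher in WT, with an exact 95% counting interval from 6.01 to 192. The log2 fold change was -4.26 (SE 1.56, 95% interval -7.82 to -0.70), with an adjusted p of 0.315 by edgeR. Phlda3 was tested only because its WT counts were high enough, so that the test was open to it in 1 direction. Its log2 fold change was -4.44 without WT replicate 1 (edgeR), and it was too low to be tested without WT replicate 2. The stromal marker sum was lower in the same libraries, and whether Phlda3 footprints came from those cells was not tested.

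Bax, whose product opens the mitochondrial outer membrane in apoptosis, hardly differed. Bax (ENSMUSG00000003873, chromosome 7, 45111121 to 45116322, minus strand) had 243 and 266 counts in cKO, against 150 and 690 in WT, or 167 and 179 CPM in cKO, against 165 and 237 CPM in WT. The cKO libraries and WT replicate 1 were alike and WT replicate 2 was higher. The log2 fold change was -0.23 (SE 0.25, 95% interval -0.80 to 0.35, adjusted p = 0.791, edgeR), and it turned to 0.08 without WT replicate 2. The interval does not hold a doubling or a halving of Bax, which would be 1 and -1 on the log2 scale.

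The remaining members had few counts, and these limit what can be read from them. Trp53inp1 (ENSMUSG00000028211, chromosome 4, 11156431 to 11174379, plus strand), whose product takes part in p53-dependent cell death and autophagy, had 12 and 5 counts in cKO, against 12 and 0 in WT. The count of 0 was in WT replicate 2, where 22.7 counts were expected from the other libraries, and it allows up to 1.03 CPM (3 counts). The gene is thus among the 362 that were missing from that library, and its log2 fold change of -0.09 (SE 2.10, adjusted p = 0.991, edgeR) had a 95% interval from -4.87 to 4.70. Btg2 (ENSMUSG00000020423, chromosome 1, 134002908 to 134006858, minus strand), which encodes an anti-proliferative partner of the mRNA deadenylase complex, had 11 and 4 counts in cKO, against 0 and 0 in WT. The exact 95% counting interval of the level in cKO over that in WT, from summed counts, begins at 4.66. The 2 cKO libraries differed for Btg2, at 7.54 and 2.70 CPM, and the lower of them is below the 3.31 CPM that 3 counts make in WT replicate 1. The gene was too low to be tested. From the other libraries, 11.7 counts of Btg2 were expected in WT replicate 2 and 2.28 in WT replicate 1.

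Zmat3 (ENSMUSG00000027663, chromosome 3, 32388941 to 32420163, minus strand), which encodes a zinc-finger RNA-binding protein, had 4 and 7 counts in cKO, against 9 and 19 in WT. These are 2.74 and 4.72 CPM in cKO, against 9.93 and 6.52 CPM in WT, so the groups did not overlap, but the level from summed counts was 1.96 times higher in WT with a counting interval from 0.945 to 4.36. Aen (ENSMUSG00000030609, chromosome 7, 78545602 to 78560957, plus strand), which encodes a nuclease that acts in apoptosis, had 6 and 5 counts in cKO, against 2 and 22 in WT. Its cKO levels of 4.12 and 3.37 CPM lay between the WT levels of 2.21 and 7.55 CPM. Neither gene passed the filter on low counts, and no difference was detectable for them at this depth.

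**Figure D2:**
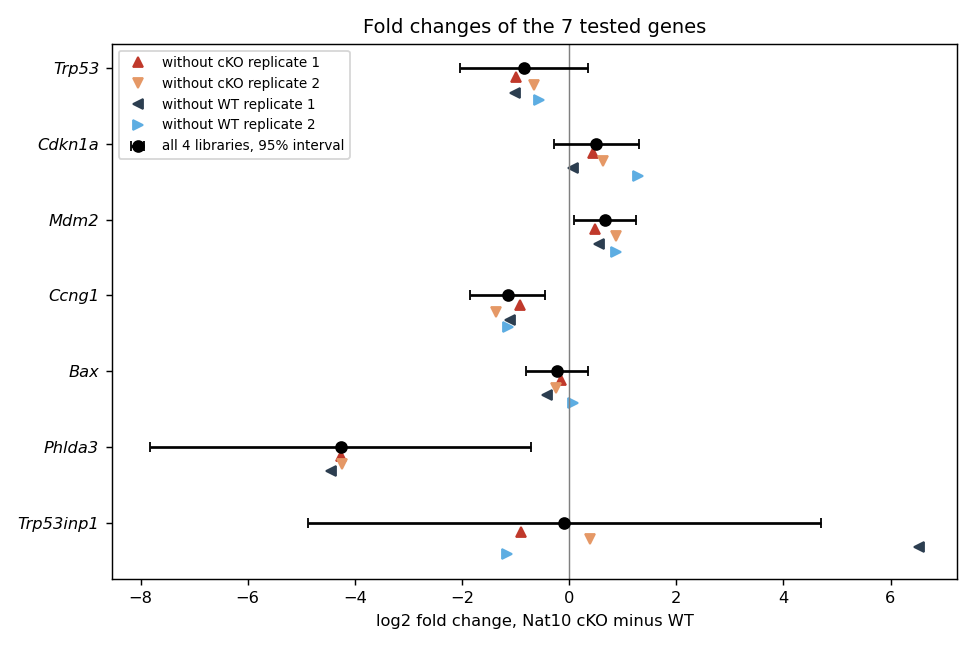
Log2 fold change, Nat10 cKO minus WT (x axis), of the 7 tested genes (y axis) from all 4 libraries (black circles, bars are 95% intervals of the edgeR fit) and with each library left out (coloured triangles; a left-out value is missing where the gene could not be tested). Mdm2, Ccng1 and Phlda3 keep their side of 0, Cdkn1a spans 0.08 to 1.28, and Trp53inp1 spans -1.16 to 6.53.

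The level of Mdm2 and Cdkn1a relative to Trp53 was also read within each library, where no scaling between libraries is needed. These ratios were added after the counts had been seen, they carry no length correction, so that they are compared only between libraries, and all share the same Trp53 counts. Mdm2 had 11.2 and 10.7 counts per Trp53 count in cKO, against 4.03 and 3.68 in WT. The 2 libraries of each genotype were close and the genotypes did not overlap, with means (SD, n = 2 each) of 10.9 ± 0.34 for cKO and 3.86 ± 0.25 for WT, a ratio of 2.83. Cdkn1a had 12.3 and 13.5 counts per Trp53 count in cKO, against 3.57 and 5.98 in WT, a ratio of means of 2.70. In contrast to its CPM, Cdkn1a did not overlap between genotypes on this scale. Bax had 6.75 and 9.17 in cKO, against 5 and 5.15 in WT. Ccng1 had 2.03 and 3.45 in cKO, against 3.97 and 2.82 in WT, and overlapped. Phlda3 had 0.0278 and 0.0345 in cKO, against 0.367 and 0.358 in WT. Because Trp53 counts were themselves lower in cKO, most genes moved this way: 57.7% of the other tested genes had higher ratios in both cKO libraries and 4.93% lower ones. The median ratio between genotypes over 7944 tested genes was 1.73, and both the 2.83 of Mdm2 and the 2.70 of Cdkn1a lay below the 95th percentile of 4.41. The Phlda3 ratio of means, 0.0859, lay below the 5th percentile of 0.624. Phlda3 was tested only because of its WT counts, so this place was set in part by the filter and is no support.

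**Figure D3:**
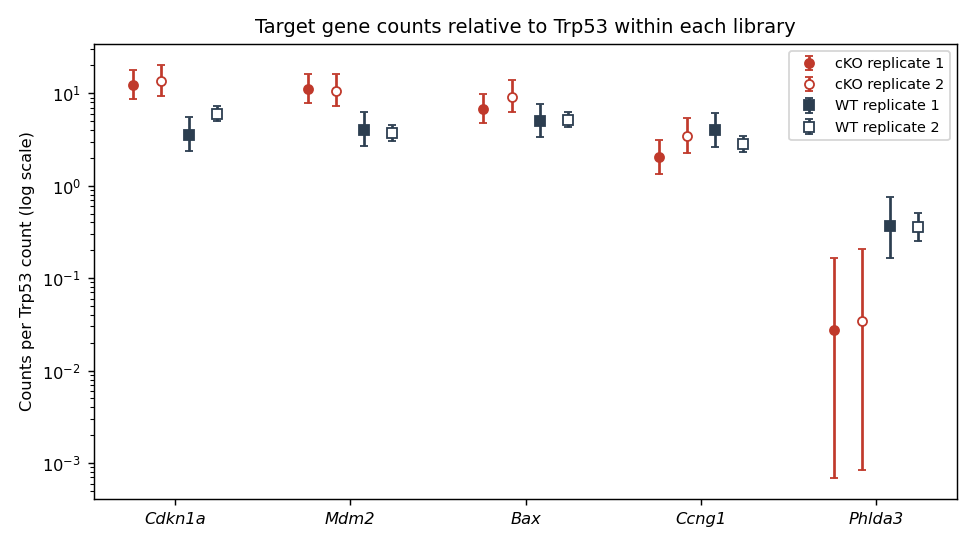
Counts of 5 target genes per Trp53 count within each library (y axis, log scale) for cKO replicates 1 and 2 (red circles) and WT replicates 1 and 2 (dark squares), with exact 95% binomial intervals for counting error. Mdm2 stands at 11.2 and 10.7 in cKO and at 4.03 and 3.68 in WT, Ccng1 overlaps between genotypes, and Phlda3 rests on 1 count in each cKO library.

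The wider p53 pathway was read from lists of known genes and from the pathway annotation in the deposited table. Of 23 genes that activate, modify or degrade p53 or belong to its family, 17 were tested and 0 passed in either direction (median log2 fold change 0.14, against -0.01 over all genes; 0 at an unadjusted p under 0.05, edgeR). The p53 relatives Trp63 and Trp73 had 0 counts in every library. Of the tested genes of this list, the smallest p-values were those of the related acetyltransferase genes Crebbp (54.2 and 95.7 CPM in cKO, against 54.0 and 23.0 CPM in WT; log2 1.01, SE 0.51, adjusted p = 0.474) and Ep300 (139 and 127 CPM in cKO, against 89.3 and 98.8 CPM in WT; log2 0.49, SE 0.27, adjusted p = 0.513, both edgeR). Neither gene overlapped between genotypes, but 22.7% of all genes tested likewise had higher values in both cKO libraries. The cKO libraries differed for Crebbp, and cKO replicate 1 was close to WT replicate 1. The log2 fold change of Crebbp was 1.74 without WT replicate 1 and 0.49 without WT replicate 2 (edgeR).

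Of 49 further p53 target genes, 32 were tested and 0 passed by edgeR, with 13 positive and 19 negative log2 fold changes and a median of -0.47. At an unadjusted p under 0.05, 2 of the 32 had higher and 3 lower values in cKO, against 5.63% and 6.5% of all genes, so that the counts are no result about the list. The peptide transporter gene Tap1 had 241 and 255 CPM in cKO, against 132 and 66.9 CPM in WT (log2 1.35, SE 0.33, adjusted p = 0.122, edgeR). Tap1 is also induced by interferon. It passed with DESeq2 (adjusted p = 0.00897) and with limma-voom (adjusted p = 0.000614), with at least 1 CPM required in all libraries (adjusted p = 0.0304), with no filter (adjusted p = 0.000148) and with the replicate number as a block (adjusted p = 0.0401). Of all genes tested, 2.79% passed with DESeq2, 7.53% with limma-voom and 1.80% with the replicate block, against 1.4% in the main fit. Tap1 did not pass with RLE (adjusted p = 0.119) or upper-quartile factors (adjusted p = 0.129, both edgeR). Its log2 fold change was 1.92 without WT replicate 1 and 0.92 without WT replicate 2. Without cKO replicate 1 it was 1.40, and without cKO replicate 2 it was 1.31 (edgeR). Pltp, a phospholipid transfer protein gene, had 432 and 386 CPM in cKO, against 577 and 604 CPM in WT (log2 -0.53, SE 0.16, adjusted p = 0.199, edgeR). It passed with limma-voom (adjusted p = 0.0383), as did 7.53% of all genes. Its log2 fold change was -0.53 without WT replicate 1 and -0.48 without WT replicate 2 (edgeR). The other 3 are named after their values were seen. The growth arrest gene Gadd45a had 99 and 63 counts in cKO, against 20 and 11 in WT (log2 2.24, SE 0.79, adjusted p = 0.293, edgeR). Ephx1, an epoxide hydrolase gene, was lower in cKO, at 78.2 and 57.3 CPM, against 114 and 141 CPM in WT. Its log2 fold change was -0.92 (SE 0.31, adjusted p = 0.265, edgeR). Fdxr, the ferredoxin reductase gene, had 2 and 6 counts in cKO, against 22 and 46 in WT. Its log2 fold change was -2.84 (SE 1.13, adjusted p = 0.354, edgeR), and it was tested only because of its WT counts.

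Of 32 cell cycle genes known to be repressed when p21 activates the DREAM complex, 20 were tested and all 20 had a negative log2 fold change. The median was -1.72, against -0.01 over all genes tested. Both values are set in part by the filter on low counts. Of the 20, 6 (Ccna2, Aurkb, Mcm7, Kif23, Cenpf and Hmmr) reached its level in both WT libraries and in neither cKO library, so that they could be tested only because they were higher in WT. Of the 12 untested genes, 8 had a lower and 3 a higher mean CPM in cKO (Cdc25c, Plk1 and Birc5). Some of the lower ones, named after their values were seen, rested on WT replicate 2 alone. WT counts were 0 and 96 for Ccnb1, 0 and 60 for Foxm1, and 1 and 62 for Plk4, and these genes overlapped between genotypes. So did the tested Mcm2, with 14.4 and 12.8 CPM in cKO, against 14.3 and 77.5 CPM in WT. By edgeR, 2 of the 20 fell, against 0.754% of all genes. These were the topoisomerase gene Top2a (41.8 and 27.0 CPM in cKO, against 141 and 129 CPM in WT; log2 -1.97, SE 0.35, adjusted p = 0.0324) and the ribonucleotide reductase gene Rrm2 (15.8 and 8.09 CPM in cKO, against 62.9 and 87.1 CPM in WT; log2 -2.65, SE 0.51, adjusted p = 0.0497). Both calls were lost when cKO replicate 1 was left out (adjusted p of 0.0504 and 0.0636) and without cKO replicate 2 (0.235 and 0.255), and Rrm2 also with RLE factors (0.0505). The low level of many cell cycle genes in cKO was known from earlier results of these data and is no independent support. The stromal marker sum was also lower in cKO, and its part in the cell cycle difference was not tested.

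Nucleolar stress reaches p53 through ribosomal and nucleolar proteins that bind Mdm2. Of 13 such genes, 7 were tested and 0 passed by edgeR in either direction (0 at an unadjusted p under 0.05; median log2 fold change 0.06). The smallest p-values were those of Rps3 (388 and 373 CPM in cKO, against 290 and 285 CPM in WT; log2 0.40, SE 0.18, adjusted p = 0.415) and Mybbp1a (311 and 290 CPM in cKO, against 247 and 236 CPM in WT; log2 0.31, SE 0.19, adjusted p = 0.565, both edgeR). The cKO libraries lay above the WT libraries for both genes, as for 22.7% of all genes tested, with little spread within a genotype. Of the 7 log2 fold changes, 5 were positive and 2 negative. The negative ones, Rps27l and Gnl3, did not overlap either, as for 22.6% of all genes tested with lower values in cKO. Rps27l had 50.8 and 67.4 CPM in cKO, against 94.8 and 78.9 CPM in WT. Gnl3 had 124 and 119 CPM in cKO, against 165 and 148 CPM in WT. Rps14 did not overlap, with 40.5 and 39.1 CPM in cKO, against 34.2 and 1.37 CPM in WT (log2 1.28, SE 1.08, edgeR), so its WT libraries differed widely. Rps27l, Gnl3 and Rps14 are named after their values were seen. Rpl5 and Rpl11, the best-known of these Mdm2 binders, and Rps7 and Rps27 are listed at 0 in every library. Since every cell makes these ribosomal proteins, those zeros give no level.

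The deposited annotation places 72 genes in the p53 signaling pathway, among them 6 of the 10 members (Trp53, Cdkn1a, Mdm2, Ccng1, Bax and Zmat3). Of the 66 others, 39 were tested, 0 rose and 3 fell by edgeR, against 0.641% and 0.754% of all genes, with a median log2 fold change of -0.26, against -0.01 over all genes. Those that fell include Rrm2 and Thbs1. Thbs1, the gene of the secreted protein thrombospondin 1, had 733 and 783 CPM in cKO, against 1278 and 1445 CPM in WT (log2 -0.85, SE 0.14, adjusted p = 0.0209, edgeR). Its call was lost on leaving out either cKO library, with edgeR's adjusted p at 0.170 for replicate 1 left out and 0.0595 for replicate 2. Thrombospondin 1 is also made by stromal cells, whose markers had a lower summed level in cKO with Pdgfrb and Runx2 as exceptions, and the part of those cells was not tested.

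**Figure D4:**
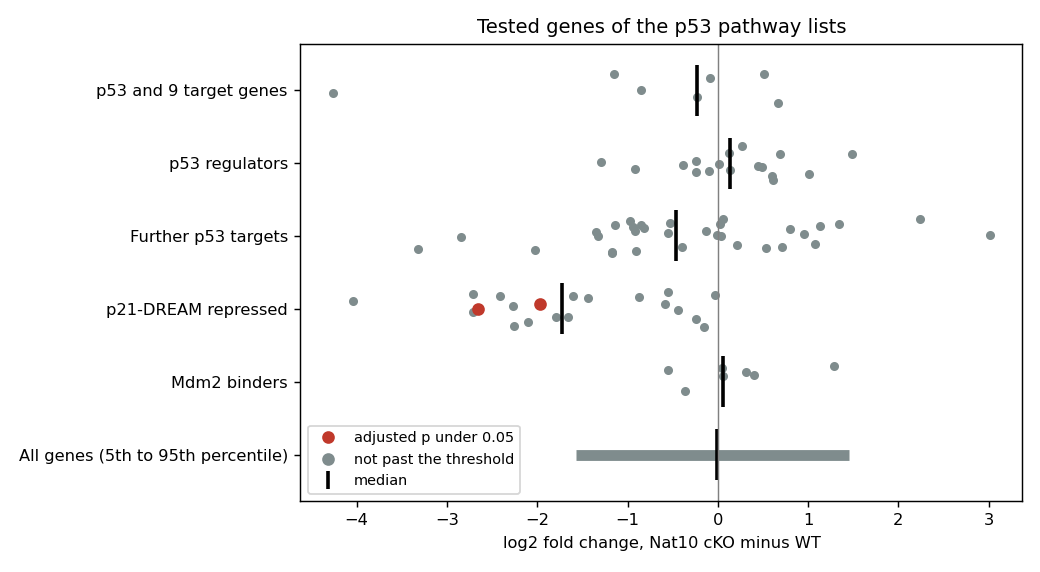
Log2 fold change, Nat10 cKO minus WT (x axis), of each tested gene in 5 lists (rows; points are spread vertically for legibility), with list medians as black bars and genes at an adjusted p under 0.05 in red. The bottom row gives the 5th to 95th percentile of all 7953 tested genes, -1.57 to 1.46. The 20 tested p21-DREAM genes lie at negative values, with Top2a and Rrm2 in red, and the other lists lie on both sides of 0.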

How the data were processed

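Ribosome-protected fragments of 2 Nat10 cKO and 2 WT libraries were analysed. Cycloheximide was used at 100 μg/mL in the wash and ribosomal RNA was removed, per the labels' protocols. The authors deposited raw counts per gene (file headers). The tools fastp, Bowtie, STAR and HTSeq and the build GRCm39 (mm39) are listed in the submitters' processing notes. The sources used here do not give the settings for strand, footprint length, duplicates and multi-mapping reads, and the counts of ribosomal protein genes are therefore uncertain.

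The filter was filterByExpr with a minimum count of 10 and a minimum total of 15. Libraries were scaled by TMM and genes tested with edgeR 4.0.16 (R 4.3.3; quasi-likelihood, robust, genotype only), with Benjamini-Hochberg adjustment over 7953 genes at 0.05. The common biological coefficient of variation was 0.448. Alternatives used DESeq2 1.42.0, limma 3.58.1, other scalings and filters, left-out libraries and a replicate block. Same-numbered libraries showed no pairing (correlation of deviations -0.02). No library was a copy of another by chi-square. The fit was tested on simulated counts. The first such test, with gene-wise spread, gave more false calls than the limit set for it. The limit was then applied to repeated simulations with the trended spread, which met it, and gene-wise runs were kept without a limit, so the share of false calls may be above the nominal one. Counting intervals are 95% and cover counting error only, as reads from PCR are not independent molecules. The members and lists were chosen with earlier results of these data known. All members are named, and from each list the genes past the threshold or else the 2 with the smallest p; others are marked. One gene of the annotated pathway is not reported here.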

Additional observations from a re-analysis of the deposited data

How the results depend on the processing

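With 2 libraries a group, 1 of them apart, no member passed in the 4-library fit, and depth limits Trp53inp1, Zmat3, Aen, Btg2 and Phlda3 to loose bounds. With limma-voom 1 of the 7 tested members passed, lower in cKO, against 7.53% of all genes. Some members also passed when a WT library was left out, as did far more genes over all than in the main fit. A lone library is then assumed to vary like the other genotype's. DESeq2 gave no adjusted p for Trp53, Phlda3 or Trp53inp1. Zmat3, Aen and Btg2, tested in 5, 5 and 3 alternatives, were called in 0 of them (smallest adjusted p 0.668, 0.674 and 0.174). Over the other 7 members and the alternatives that gave them an adjusted p, 59 results kept their direction and side of the threshold, 7 became significant and 5 reversed. The reversals were Trp53inp1 with limma-voom (3.11), with the replicate block (1.38) and with libraries left out (-1.16 to 6.53), and Bax with libraries left out (-0.42 to 0.080). Nat10 also turned sign (-0.51 to 0.25 with libraries left out). The cause was not tested. The replicate block, for numbers that do not pair the samples, changed no member's call. It moved the calls over all genes to 67 higher and 76 lower.

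The median of the tested members was -0.46 with at least 1 CPM required in all libraries, where Zmat3 and Aen were tested in place of Phlda3 and Trp53inp1, and -0.76 to -0.24 with libraries left out. Over all genes, 51 were higher and 60 lower. These numbers became 184 and 179 with no filter, 95 and 95 with the CPM filter, 114 and 108 with DESeq2, 412 and 187 with limma-voom, and 35 to 1354 and 38 to 1066 with libraries left out. Across the wider lists 103 genes were tested in the main fit, where 0 rose and 4 fell, against 0.641% and 0.754% of all genes. With other settings 98 to 141 of their genes were tested. The largest counts below came without WT replicate 1, where 118 were tested. Since the calls over all genes changed with the settings too, the counts below are no result about the lists. The number that rose was 2 with no filter, 1 with the CPM filter, 1 with DESeq2, 3 with limma-voom, 1 with the replicate block and 0 to 13 with libraries left out. The number that fell was 7 with limma-voom and 0 to 30 with libraries left out.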
